A study of Homo sapiens with 12 samples.

Results

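The genes described here encode 10 surface antigens of myeloma cells that are in use or in development as therapy targets, with close relatives: TNFRSF17 (BCMA), TNFRSF13B (TACI), SLAMF7, CD48, LY9, CD38, SDC1 (CD138), GPRC5D, FCRL5 and CD47. They were taken by name from a deposited table of 38478 genes, and all 10 were in it. Poly(A) RNA of OPM-1, an established human myeloma cell line, was sequenced after 48 h of treatment. The conditions were vehicle (DMSO), lenalidomide at 0.1 μM (LEN), AI-10-104 at a dose of 1 μM, and the combination of these doses (LEN+AI-10-104). Each condition had 3 samples, 12 in all. Lenalidomide directs the ubiquitin ligase cereblon to the transcription factors IKZF1 and IKZF3, and AI-10-104, which the labels call RUNXi, blocks the binding of RUNX factors to their partner CBFβ. The study compared the drugs alone and together.

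As background, plasma cells keep a small set of surface proteins when they leave the B cell program, and antibodies, bispecific antibodies and CAR T cells against myeloma are aimed at these. BCMA and TACI receive the survival ligands APRIL and BAFF, and BCMA is shed from the membrane by gamma-secretase. SLAMF7, CD48 and LY9 belong to the SLAM family of immune cell receptors and lie side by side on chromosome 1, CD38 is an enzyme that consumes NAD, and CD47 signals to phagocytes not to engulf the cell that carries it.

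The libraries held 16352548 to 31386210 reads on genes, and the deepest LEN+AI-10-104 library was shallower than 8 of the 9 others. The plasma cell markers were high in every sample, with XBP1 at 509 and IRF4 at 209 RPKM in DMSO (RPKM, reads scaled to gene length and to the reads counted in the library), and FGFR3, a gene activated by the t(4;14) translocation, stood at 600.1 RPKM. The B cell markers MS4A1 and PAX5, the T cell marker CD3D, the NK cell marker NKG7 and the fibroblast markers COL1A1 and COL1A2 were at 0 or rested on at most 3 reads in any sample. CD79A, CD3E, KLRD1, CD14, LYZ and CSF1R, further markers of B cells, T cells, NK cells and monocytes, reached at most 0.551 RPKM in any sample. NCAM1 (CD56), which was on the NK cell list and is also carried by many myelomas, stood at 12.1 RPKM in DMSO. On the first principal component, with 17.2% of the variance, AI-10-104 replicate 2 lay at 4.87 and the other AI-10-104 replicates at 19.8 and 19.5.

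The 10 genes spanned several orders of magnitude in vehicle-treated cells. TNFRSF17 led with 178 ± 2.86 RPKM (SD, n = 3), higher than 97.5% of the 11241 genes tested, followed by SDC1 at 146 ± 7.57 and CD48 at 133 ± 3.01. A middle group held CD38 at 29.4 ± 0.882, SLAMF7 at 19.3 ± 1.21, GPRC5D at 16.5 ± 0.936 and CD47 at 9.03 ± 0.206 RPKM. TNFRSF13B followed at 1.81 ± 0.148 and LY9 at 0.819 ± 0.0197, the latter above only 7.97% of the tested genes. FCRL5 was last at 0.0339 ± 0.0159 RPKM.

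No neighbours in this order overlapped between their DMSO samples, and the order over the means of all 12 samples was the same. The order in the middle group depended on the gene length used. With the exon length of GENCODE 44 in place of the deposited one, GPRC5D moved from place 6 to place 4, with 49.9 RPKM, ahead of CD38 at 24.4 and SLAMF7 at 11.7, since its deposited length was 4076 bases and its annotated exon length 1347 bases. LY9 was at 0.384 RPKM in DMSO on that length. The levels and tests given below use the deposited lengths, on which the pseudocount and the limit for testing act.

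**Figure D1:**
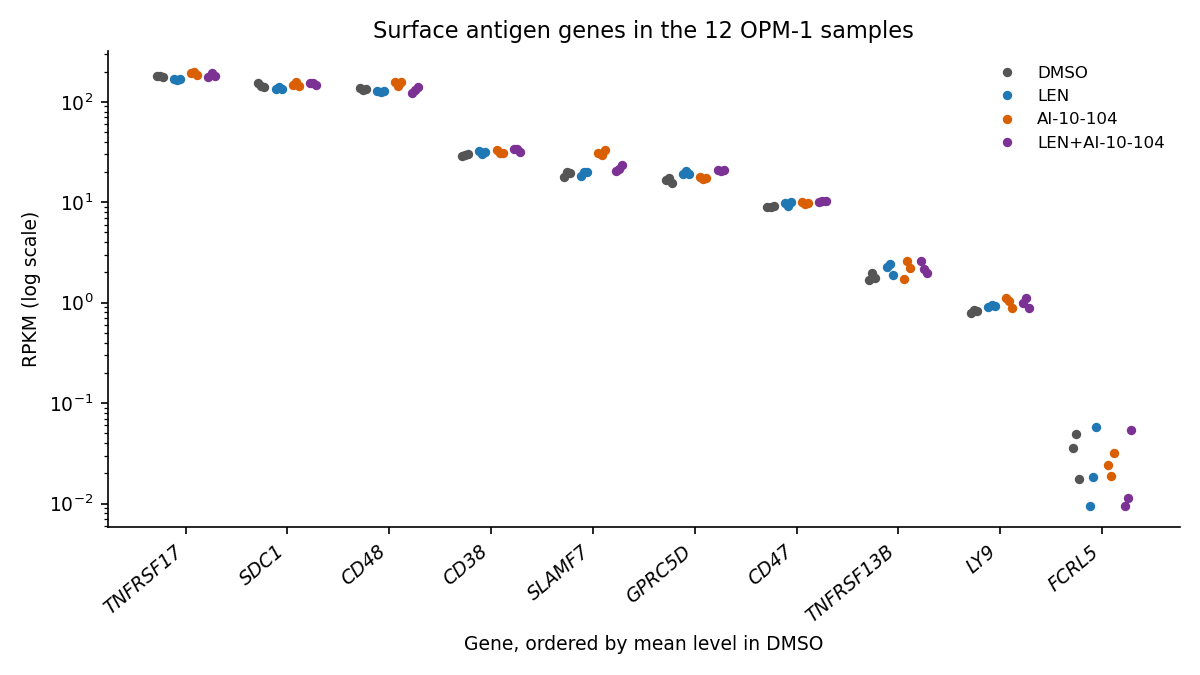
Level of each of the 10 surface antigen genes in RPKM (vertical axis, log scale) in the 12 samples, with genes ordered by their mean in DMSO (horizontal axis), 1 point per sample and colors for the 4 conditions. TNFRSF17, SDC1 and CD48 sit above 100 RPKM in every sample, FCRL5 below 0.1 RPKM in every sample, and only SLAMF7 has a condition, AI-10-104, that stands visibly apart at this scale.

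Differences between conditions were tested with limma on log2(RPKM + 0.1) over the 11241 genes whose mean across the 12 samples reached 0.5 RPKM, as 9 of the 10 antigen genes did and FCRL5 did not. A gene was called changed at an adjusted p of at most 0.05 and a log2 fold change of at least 0.32 in either direction. With AI-10-104 against DMSO 1 of the 9 genes was called, SLAMF7, and it was higher. Over all tested genes 1.77% (199) were called in this comparison, a number that moved to 443 without AI-10-104 replicate 2, 119 without replicate 1 and 129 without replicate 3 of that condition, and 127 without DMSO replicate 1. With LEN+AI-10-104 against DMSO 1 of 9 was called, GPRC5D, also higher, beside 2.94% of all genes. With LEN against DMSO limma called 0 of the 9, beside 0.649% of all genes (73, and 35 without LEN replicate 1), although 5 of them had an unadjusted p under 0.05, and voom called 0.

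Between the treated conditions, SLAMF7 was the 1 gene of 9 called lower in LEN+AI-10-104 than in AI-10-104, where 3.63% of all genes were called (408, and 183 to 764 without 1 AI-10-104 replicate), and the 1 of 9 called lower in LEN than in AI-10-104, where the share was 3.97%. Between LEN+AI-10-104 and LEN limma called 0 of the 9, beside 1.68% of all genes, with 3 at an unadjusted p under 0.05, and voom called 0. Counted by an adjusted p of at most 0.05 with any fold change, limma gave 1 of the 9 genes with LEN (1.13% of all genes), 2 with AI-10-104 (4.55%) and 3 with both (8.64%) against DMSO. The counts were 0 between LEN+AI-10-104 and LEN (4.62%), 3 between LEN+AI-10-104 and AI-10-104 (15.0%) and 4 between LEN and AI-10-104 (13.8%). These comparisons share samples, those with DMSO the 3 DMSO samples, and are not independent of each other. For the pairwise comparisons the share of all genes with an unadjusted p under 0.05 was not counted, here and below. The replicates are described as biological in the study's methods.

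Counted by their samples alone, 6 of the 9 genes were higher in all 3 AI-10-104 samples than in any DMSO sample and 0 were lower, beside 13.1% and 10.2% of all genes. With LEN+AI-10-104 it was again 6 and 0, beside 18.1% and 11.1%, and with LEN 3 were higher and 2 lower, beside 9.42% and 7.03%. The median log2 fold change of the 9 genes was 0.12 with AI-10-104, 0.17 with LEN+AI-10-104 and 0.09 with LEN, where the medians over all tested genes were 0.01, 0.02 and 0.00.

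**Figure D2:**
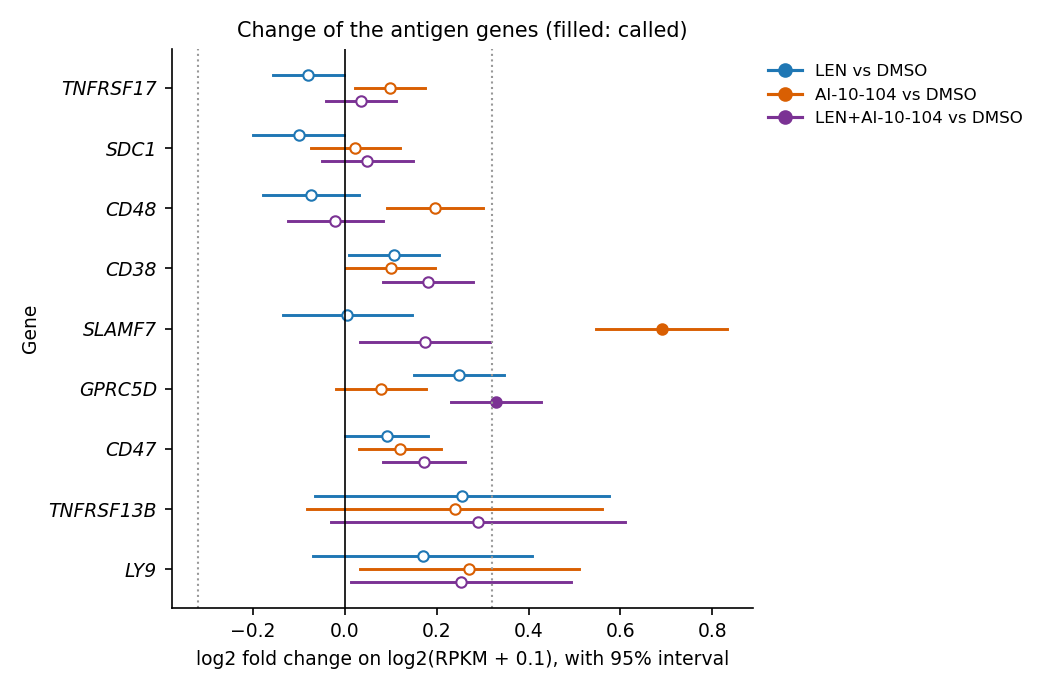
Log2 fold change against DMSO on the log2(RPKM + 0.1) scale (horizontal axis) with its 95% interval for the 9 tested genes (vertical axis), in LEN, AI-10-104 and LEN+AI-10-104. Filled points were called and dotted lines mark 0.32 in either direction. SLAMF7 with AI-10-104 at 0.69 lies apart from the rest, GPRC5D with LEN+AI-10-104 at 0.33 lies just past the line, and the wide intervals of TNFRSF13B and LY9 belong to the tested genes with the fewest reads.

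Among the SLAM family genes, SLAMF7 (CS1), the target of the antibody elotuzumab, had the largest differences. It is on chromosome 1 at 160739057 to 160754821 on the plus strand (GRCh38). SLAMF7 measured 17.9, 20.2 and 19.7 RPKM in the DMSO replicates and 18.2, 19.9 and 19.9 RPKM in the LEN replicates. It measured 31.0, 29.6 and 32.8 RPKM with AI-10-104 and 20.4, 21.2 and 23.7 RPKM with LEN+AI-10-104. The 3 AI-10-104 samples stood above all other samples, the DMSO and LEN samples overlapped, and the LEN+AI-10-104 samples lay above both by a small margin.

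SLAMF7 rose 1.61-fold with AI-10-104 against DMSO, a log2 fold change of 0.69 (SE 0.07, 95% interval 0.55 to 0.83, limma adjusted p = 0.00011). When lenalidomide was added to AI-10-104, SLAMF7 fell by 0.52 on the log2 scale (SE 0.07, limma adjusted p = 0.0011), and it was lower in LEN than in AI-10-104 by a log2 fold change of -0.69 (limma adjusted p = 6.4e-05). The combination differed from DMSO by 0.17 (95% interval 0.03 to 0.32, limma adjusted p = 0.13) and LEN differed from DMSO by 0.01 (95% interval -0.14 to 0.15, limma adjusted p = 0.99), neither of which passed the test. In RNA of whole cultures, fewer cells that express a gene and less RNA per cell cannot be told apart.

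The interaction term tests directly whether the effect of lenalidomide differed with and without AI-10-104. For SLAMF7 it was -0.52 (SE 0.09), with an unadjusted p of 0.00011 and a limma adjusted p of 0.16, so it was not called. No gene of 11241 was called in this term (0.0%) by limma, although 1621 genes, 14.4%, had an unadjusted p under 0.05. Without AI-10-104 replicate 2, the sample apart on the first principal component, this count went from 0 to 540 genes, 4.8% of all, 415 positive and 125 negative, and SLAMF7 was 1 of them (-0.56, limma adjusted p = 0.015). Limma's voom on the recovered reads of all 12 samples called 3 genes, SLAMF7 among them (-0.53, adjusted p = 0.022). Whether the interaction of SLAMF7 passed the test depended on the fit and on 1 library.

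CD48, the ligand of the receptor CD244 (2B4) and anchored to the membrane by a lipid, lies on the minus strand with its start 27.2 kb from that of SLAMF7 (chromosome 1, 160678746 to 160711831). CD48 measured 136, 130 and 133 RPKM in DMSO and 127, 124 and 128 RPKM in LEN. It measured 156, 143 and 157 RPKM with AI-10-104 and 123.3, 130 and 140 RPKM with LEN+AI-10-104. As for SLAMF7, the AI-10-104 samples were the highest of all, here by a smaller margin, while the combination overlapped with DMSO and LEN.

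CD48 was higher with AI-10-104 than with DMSO by a log2 fold change of 0.20 (SE 0.05, limma adjusted p = 0.041), than with LEN+AI-10-104, where the log2 fold change of the combination was -0.22 (limma adjusted p = 0.016), and than with LEN, at -0.27 (limma adjusted p = 0.0039). All 3 were under the fold threshold and none was a call. The adjusted p against DMSO stayed under 0.05 in 9 of 22 other settings, with a range of 0.0067 to 0.16, and that of LEN against AI-10-104 in 22 of 22. The interaction term of CD48 was -0.14 (SE 0.07, limma adjusted p = 0.36). GENCODE 44 places exons of a noncoding gene on the opposite strand over those of CD48, and this gene has no entry under its GENCODE 44 name among the deposited genes. The study's methods name a directional library kit, but the strand setting of the counting is not given in the sources used here. Whether reads of the noncoding gene were counted with those of CD48 is therefore not known.

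LY9 (CD229, SLAMF3), a homophilic receptor, starts 57.0 kb on the other side of SLAMF7 (chromosome 1, 160796074 to 160828261, plus strand) and was barely expressed. LY9 measured 0.797, 0.836 and 0.824 RPKM in DMSO, 0.914, 0.952 and 0.934 in LEN, 1.12, 1.03 and 0.889 with AI-10-104 and 0.988, 1.12 and 0.894 with LEN+AI-10-104. Its treated samples all lay above the DMSO samples, on 75 to 130 reads per sample. No comparison of LY9 passed, and the log2 fold change with AI-10-104 was 0.27 (95% interval 0.03 to 0.51, limma adjusted p = 0.18).

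**Figure D3:**
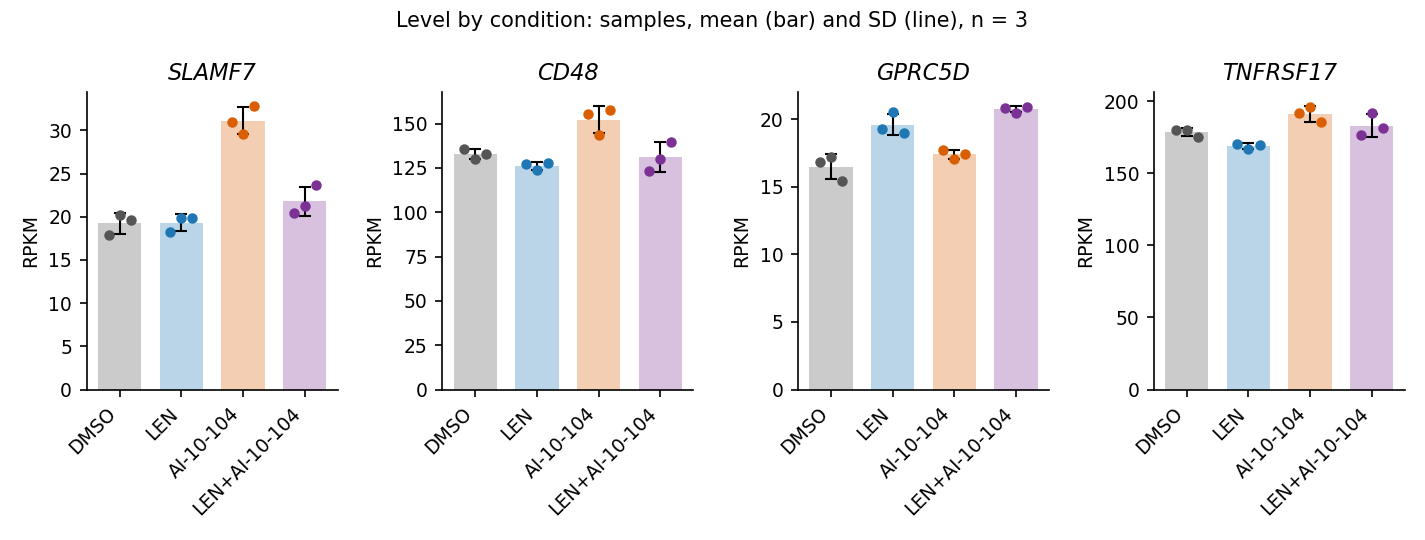
Level in RPKM (vertical axes, from 0) of SLAMF7, CD48, GPRC5D and TNFRSF17 in the 4 conditions (horizontal axes), with points for samples, bars for means and lines for the SD (n = 3). SLAMF7 is highest with AI-10-104 at a mean of 31.1 RPKM against 19.3 in DMSO and 21.8 in the combination, while GPRC5D is higher in both conditions that held lenalidomide, at 19.6 and 20.7 RPKM against 16.5 in DMSO and 17.4 with AI-10-104.

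Of 36 genes that start within 500 kb of SLAMF7, a window chosen after its value was seen, 23 were tested, SLAMF7 itself among them. SLAMF7 was the 1 gene of these called with AI-10-104, beside 1.77% of all tested genes. Since the window was centred on SLAMF7, a count of at least 1 was fixed in advance. The SLAM genes SLAMF1, SLAMF6, CD84 and CD244 lie in the same window and were under 0.1 RPKM in DMSO. On the near sides, CD48 was at 0.20 and LY9 at 0.27 on the log2 fold change scale, and the next tested genes outward, COPA at -395.5 kb and F11R at 282.3 kb, had -0.01 and -0.05. Beyond the SLAM genes, the SLAM adaptors SH2D1A and SH2D1B and CD2 were not tested either, and CD58, the ligand of CD2, was the 1 of 10 further genes of these families that reached a mean of 0.5 RPKM over the 12 samples. CD58 stood at 0.47 ± 0.0316 RPKM in DMSO and 0.593 ± 0.0328 with AI-10-104 (SD, n = 3). None of its comparisons passed in the limma fit (AI-10-104 against DMSO 0.28, limma adjusted p = 0.22), 4 of 6 having an unadjusted p under 0.05, while voom called CD58 in 4 of 6. Its deposited length was 19719 bases and its annotated exon length 1784 bases. Its RPKM was therefore low for its 160 to 361 reads per sample, and the pseudocount makes fold changes at such levels smaller.

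**Figure D4:**
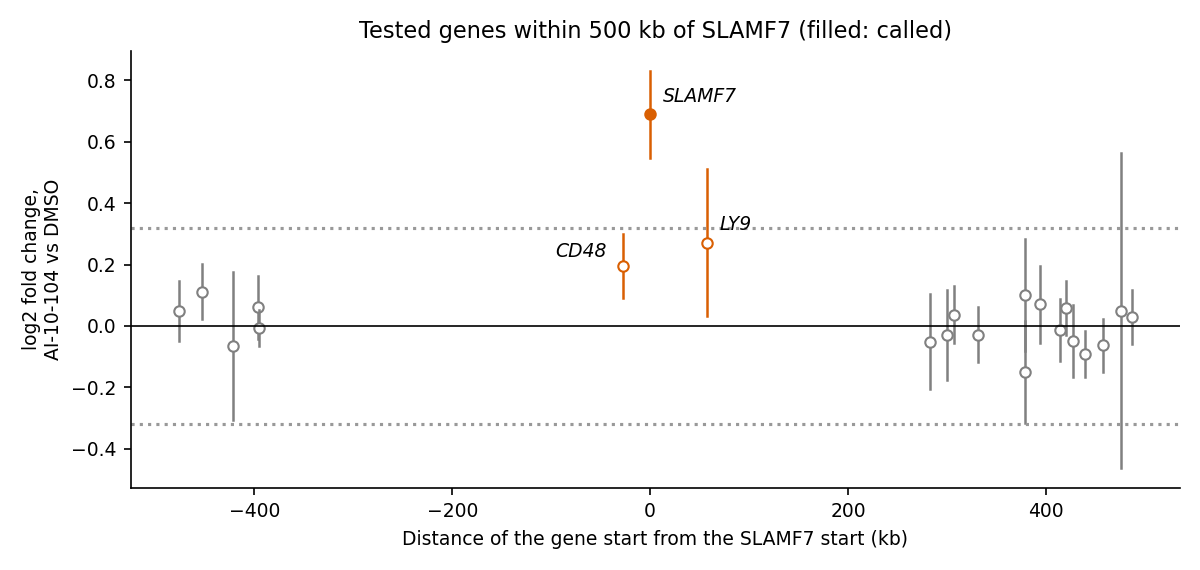
Log2 fold change with AI-10-104 against DMSO (vertical axis, with 95% intervals) of tested genes by the distance of their start from that of SLAMF7 in kb (horizontal axis). SLAMF7 at 0.69 is the one filled, called point, and CD48 at 0.20 and LY9 at 0.27 flank it; MIR5187, whose standard error was 1.03, is left out of the plot.

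GPRC5D, an orphan G protein-coupled receptor that is the target of talquetamab, is on chromosome 12 at 12940575 to 12952170 on the minus strand (GRCh38). GPRC5D measured 16.8, 17.2 and 15.4 RPKM in DMSO and 17.8, 17.1 and 17.4 RPKM with AI-10-104. It measured 19.3, 20.5 and 19.0 RPKM in LEN and 20.8, 20.5 and 20.9 RPKM with LEN+AI-10-104. Every sample that held lenalidomide was above every sample that did not, and within each of these pairs of conditions the samples overlapped.

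GPRC5D rose 1.26-fold with LEN+AI-10-104 against DMSO, a log2 fold change of 0.33 (SE 0.05, 95% interval 0.23 to 0.43, limma adjusted p = 0.0011). This value lay just past the fold threshold and fell under it, at 0.28 to 0.31, with a pseudocount of 1, with median-ratio or quantile scaling and without DMSO replicate 3, while the adjusted p stayed under 0.05 in 22 of 22 other settings. With LEN alone GPRC5D was higher than in DMSO by 0.25 (SE 0.05, limma adjusted p = 0.023), under the fold threshold, and this adjusted p rose above 0.05 in 4 of 22 settings, with 0.13 the highest. The combination was higher than AI-10-104 by 0.25 (limma adjusted p = 0.0064) and LEN was higher than AI-10-104 by 0.17 (limma adjusted p = 0.028), both under the fold threshold. AI-10-104 against DMSO gave 0.08 (95% interval -0.02 to 0.18, limma adjusted p = 0.34), and the interaction was 0.00 (SE 0.06).

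Of the other GPRC5 genes, GPRC5C was at 0 in the 12 samples, GPRC5A was at 0 in all conditions but LEN, where its mean was 0.00767 RPKM, and GPRC5B stood at 0.613 ± 0.0909 RPKM in DMSO and passed no comparison by limma or voom (AI-10-104 against DMSO -0.36, limma adjusted p = 0.21).

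Promoter sequences from RefSeq (GRCh38.p14, 250 bases before to 50 after the start of transcription) were given for 7 of the 10 genes, all but SLAMF7, TNFRSF17 and LY9. The promoter of GPRC5D, the gene called with the combination, and that of CD48, the neighbour of SLAMF7, are shown from 5′ to 3′ on the strand of the gene, with capitals for a match to the IKZF letters TGGGAA.
GPRC5D, chr12:12952121-12952420, minus strand: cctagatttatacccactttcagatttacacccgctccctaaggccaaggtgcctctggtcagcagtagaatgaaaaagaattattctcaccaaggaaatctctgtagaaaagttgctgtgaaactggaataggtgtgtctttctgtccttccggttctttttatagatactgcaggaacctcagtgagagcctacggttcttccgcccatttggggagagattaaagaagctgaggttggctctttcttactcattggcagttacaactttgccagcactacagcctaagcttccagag
CD48, chr1:160711773-160712072, minus strand: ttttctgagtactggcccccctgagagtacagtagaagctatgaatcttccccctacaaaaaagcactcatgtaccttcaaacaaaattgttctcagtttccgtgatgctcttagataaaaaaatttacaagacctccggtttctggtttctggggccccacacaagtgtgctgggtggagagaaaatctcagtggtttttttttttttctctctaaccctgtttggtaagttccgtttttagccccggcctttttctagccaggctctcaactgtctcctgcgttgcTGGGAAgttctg
The letters TGTGGT and TGCGGT of RUNX sites and TGGGAA of IKZF sites were searched on both strands in all 7. GPRC5D, CD47 and TNFRSF13B held none of them, and CD48 held TGGGAA from 38 bases after the start. CD38 held TGGGAA 45 bases before the start, and FCRL5 held it on the opposite strand 134 bases before the start. In 1 of the SDC1 promoters TGTGGT stood on the opposite strand 184 bases before the start. Over 35116 RefSeq promoters of the same length, 24.0% held TGGGAA, 13.1% TGTGGT and 7.3% TGCGGT.

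Among the APRIL and BAFF receptors, TNFRSF17 (BCMA), the target of several CAR T cell products, is on chromosome 16 at 11965210 to 11968068 on the plus strand. TNFRSF17 measured 180.0, 180.3 and 175 RPKM in DMSO and 170.4, 167 and 169.7 RPKM in LEN. It measured 192, 196 and 185 RPKM with AI-10-104 and 176, 192 and 181 RPKM with LEN+AI-10-104. The LEN samples were the lowest of all 12, the AI-10-104 samples lay above DMSO, and the combination overlapped with DMSO and with AI-10-104.

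TNFRSF17 was lower in LEN than in AI-10-104 by a log2 fold change of -0.18 (SE 0.04, 95% interval -0.26 to -0.10, limma adjusted p = 0.0074), an adjusted p that stayed under 0.05 in 22 of 22 other settings but a change under the fold threshold. Against DMSO the log2 fold changes were -0.08 with LEN (limma adjusted p = 0.44), 0.10 with AI-10-104 (limma adjusted p = 0.14) and 0.04 with both (95% interval -0.04 to 0.11, limma adjusted p = 0.60). The intervals of TNFRSF17 were the narrowest of the 9 genes.

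TNFRSF13B (TACI), on chromosome 17 at 16929816 to 16972118 on the minus strand, measured 1.69, 1.97 and 1.76 RPKM in DMSO, 2.27, 2.42 and 1.87 in LEN, 1.71, 2.59 and 2.23 with AI-10-104 and 2.58, 2.16 and 1.98 with LEN+AI-10-104. The treated samples overlapped with each other, and only the combination lay above all DMSO samples. The combination differed from DMSO by 0.29 (95% interval -0.03 to 0.61, limma adjusted p = 0.26). The intervals of TNFRSF13B, on 48 to 104 reads per sample, were the widest of the 9 genes. Annotated exons of a noncoding gene and a pseudogene on the same strand overlap those of TNFRSF13B, so its reads may be split.

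The ligands TNFSF13 (APRIL) and TNFSF13B (BAFF) were at 0.0818 and 0.126 RPKM in DMSO and were not tested. The third receptor, TNFRSF13C, and the gamma-secretase subunits made up the rest of a list of 9 genes, of which 6 were tested. Limma and voom called 0 of their 36 pairwise differences, of which 4 had an unadjusted p under 0.05. APH1A, the highest of them, stood at 100.4 ± 3.89 RPKM in DMSO and 97.9 ± 2.14 with AI-10-104 (SD, n = 3).

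CD38, the NAD-consuming ectoenzyme targeted by daratumumab, is on chromosome 4 at 15778275 to 15853232 on the plus strand. CD38 measured 28.6, 29.3 and 30.4 RPKM in DMSO and 32.5, 30.6 and 31.9 RPKM in LEN. It measured 33.1, 30.6 and 30.9 RPKM with AI-10-104 and 34.2, 34.3 and 31.6 RPKM with LEN+AI-10-104. The 9 treated samples all lay above the 3 DMSO samples and overlapped with one another.

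CD38 was higher with LEN+AI-10-104 than with DMSO by a log2 fold change of 0.18 (SE 0.05, 95% interval 0.08 to 0.28, limma adjusted p = 0.029), under the fold threshold, and this adjusted p stayed under 0.05 in 14 of 22 other settings. It rose above 0.05 with median-ratio and with quantile scaling, among others, with 0.11 the highest. With LEN the log2 fold change was 0.11 (limma adjusted p = 0.41) and with AI-10-104 it was 0.10 (limma adjusted p = 0.22). Of 5 related genes, 3 were tested, and 1 of the 3, PECAM1 (CD31), the ligand of CD38, was called. It was called with AI-10-104 and with the combination against DMSO, beside 1.77% and 2.94% of all genes. PECAM1 rose from 0.942 ± 0.00889 RPKM in DMSO to 1.34 ± 0.134 with AI-10-104 (log2 fold change 0.46, limma adjusted p = 0.026) and 1.39 ± 0.0687 with the combination (0.52, limma adjusted p = 0.0093). The ectoenzyme ENTPD1 (CD39), at 2.13 ± 0.0742 RPKM in DMSO, passed no comparison.

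SDC1 (CD138), the heparan sulfate proteoglycan by which plasma cells are recognised, is on chromosome 2 at 20200797 to 20225433 on the minus strand. SDC1 measured 155, 144 and 140.3 RPKM in DMSO and 133, 141 and 135 RPKM in LEN. It measured 147, 156 and 143 RPKM with AI-10-104 and 154, 154 and 146 RPKM with LEN+AI-10-104. The LEN samples were the lowest as a group and touched the lowest DMSO sample, and the other conditions overlapped.

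No comparison of SDC1 passed the test. Its log2 fold changes against DMSO were -0.10 with LEN (95% interval -0.20 to -0.003, limma adjusted p = 0.45), 0.02 with AI-10-104 (95% interval -0.07 to 0.12) and 0.05 with both (95% interval -0.05 to 0.15), so that changes past the fold threshold lay outside all 3 intervals.

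SDC2, another syndecan, was called in all 6 pairwise comparisons. SDC2 stood at 23.6 ± 0.417 RPKM in DMSO, 32.8 ± 1.32 with LEN, 11.5 ± 0.257 with AI-10-104 and 18.5 ± 0.596 with both (SD, n = 3). It rose with LEN (0.47, limma adjusted p = 0.00012), fell by 1.03 on the log2 scale with AI-10-104 (limma adjusted p = 3.3e-08) and fell by 0.35 with both (limma adjusted p = 0.00027). SDC4 was at 0 in all samples, and of 14 syndecan and heparan sulfate genes 11 were tested. SDC2 was the 1 of 11 called in each pairwise comparison, where 0.649% to 3.97% of all tested genes were called. The share of all tested genes called in all 6 comparisons was not counted.

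FCRL5 (FcRH5), an IgG-binding receptor targeted by cevostamab, is on chromosome 1 at 157513377 to 157552515 on the minus strand and was next to absent. FCRL5 had 6, 8 and 2 reads in DMSO, 1, 3 and 9 in LEN, 3, 3 and 4 with AI-10-104 and 1, 1 and 6 with LEN+AI-10-104. In 7 of the 12 samples it rested on at most 3 reads, taken here as the floor, and the conditions overlapped, so a difference was not detectable at this depth and no fold change is given. The 7 other FCRL genes also had a mean under 0.5 RPKM over the 12 samples, and FCRLB was the highest of them in DMSO at 0.308 ± 0.0723 RPKM (SD, n = 3). FCRL2, named after its values were seen, was at 0.217 ± 0.127 RPKM in DMSO and 0.216 ± 0.0341 with AI-10-104, against 0.478 ± 0.0864 with LEN and 0.524 ± 0.119 with both (SD, n = 3). Its lenalidomide samples, from 0.381 RPKM up, all lay above the others, at most 0.333, on 8 to 45 reads per sample. In the fit without a limit on low values none of its comparisons passed, with log2 fold changes of 0.94 for LEN (limma adjusted p = 0.36) and 1.05 for both (limma adjusted p = 0.10) against DMSO.

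CD47, the ligand of the phagocyte receptor SIRPα, is on chromosome 3 at 108043091 to 108091862 on the minus strand. CD47 measured 8.90, 8.92 and 9.27 RPKM in DMSO and 9.81, 9.10 and 9.98 RPKM in LEN. It measured 9.95, 9.64 and 9.88 RPKM with AI-10-104 and 10.0, 10.2 and 10.4 RPKM with LEN+AI-10-104. The combination samples were the highest of all 12 and the AI-10-104 samples lay above DMSO, while LEN overlapped with both.

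CD47 was higher with LEN+AI-10-104 than with DMSO by a log2 fold change of 0.17 (SE 0.04, 95% interval 0.08 to 0.26, limma adjusted p = 0.025), under the fold threshold, and this adjusted p stayed under 0.05 in 15 of 22 other settings. It rose above 0.05 with median-ratio and with quantile scaling, among others, with 0.094 the highest. With AI-10-104 the difference was 0.12 (limma adjusted p = 0.12) and with LEN 0.09 (limma adjusted p = 0.46). Its partner SIRPA was at 0 in all samples of this line, and of 7 partner and modifier genes 2 were tested, with 0 of 12 pairwise differences called by limma or voom and 2 at an unadjusted p under 0.05. By an adjusted p of at most 0.05 with any fold change, 1 of the 2 genes passed in limma for LEN against AI-10-104 (13.8% of all genes). CALR (calreticulin), which signals to phagocytes to engulf a cell, stood at 588 ± 27.1 RPKM in DMSO and 619 ± 15.6 with LEN (SD, n = 3).

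Outside the 10 genes, 24 other proposed myeloma surface targets and 3 complement regulators were read as context. Of the 24, 14 were tested and 6 were called in at least 1 pairwise comparison, and CD74 among them was called in 5 of 6. The share of all tested genes called in at least 1 pairwise comparison was not counted. By comparison, 1 of the 14 was called with LEN (0.649% of all genes), 4 with AI-10-104 (1.77%) and 3 with both (2.94%) against DMSO. Between treated conditions, 2 were called for both against LEN (1.68%), 3 for both against AI-10-104 (3.63%) and 3 for LEN against AI-10-104 (3.97%). The complement regulators had 0 of 18 pairwise differences called by limma or voom and 12 at an unadjusted p under 0.05, with CD59 highest at 39.4 ± 0.210 RPKM in DMSO. These 18 differences came from 3 genes in comparisons that share samples. By an adjusted p of at most 0.05 with any fold change, 1 of the 3 genes passed with AI-10-104 against DMSO (4.55% of all genes). It was CD46, at 0.22 (limma adjusted p = 0.0087). By the same rule 2 passed for both against AI-10-104 (15.0%) and 2 for LEN against AI-10-104 (13.8%), and 0 in the other pairwise comparisons. ITGB7 (integrin β7) was the highest of the 24 at 762 ± 32.3 RPKM in DMSO and fell to 505 ± 27.4 with AI-10-104 (-0.59, limma adjusted p = 9e-06), against 933 ± 15.3 with LEN and 689 ± 0.430 with both (SD, n = 3). CD74, the invariant chain, rose from 32.9 ± 1.69 RPKM to 56.0 ± 1.19 with LEN, 58.5 ± 2.05 with AI-10-104 and 93.7 ± 7.86 with both (1.51 for both, limma adjusted p = 2.6e-08).

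CXCR4, the chemokine receptor for bone marrow homing, rose with AI-10-104 (0.32, limma adjusted p = 0.00016), a value at the fold threshold. It also rose with the combination (0.36, limma adjusted p = 4.5e-05). IL6R, the receptor for interleukin 6, rose with the same treatments (0.46 and 0.40, limma adjusted p = 0.00066 and 0.0011). BST2 (CD317) was called only between treated conditions, higher with LEN than with AI-10-104 (0.52, limma adjusted p = 1.1e-05) and with the combination than with AI-10-104 (0.40, limma adjusted p = 0.00020). BST2 stood at 161.4 ± 7.33 RPKM in DMSO, 198.9 ± 5.54 with LEN, 138.5 ± 2.87 with AI-10-104 and 182.8 ± 5.17 with both (SD, n = 3). Its LEN and combination samples all lay above the DMSO samples and its AI-10-104 samples all below them, though no difference from DMSO was called. SEMA4A, at 0.537 ± 0.0685 RPKM in DMSO, was called lower in LEN than in AI-10-104 (-0.91, limma adjusted p = 0.021).

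**Figure D5:**
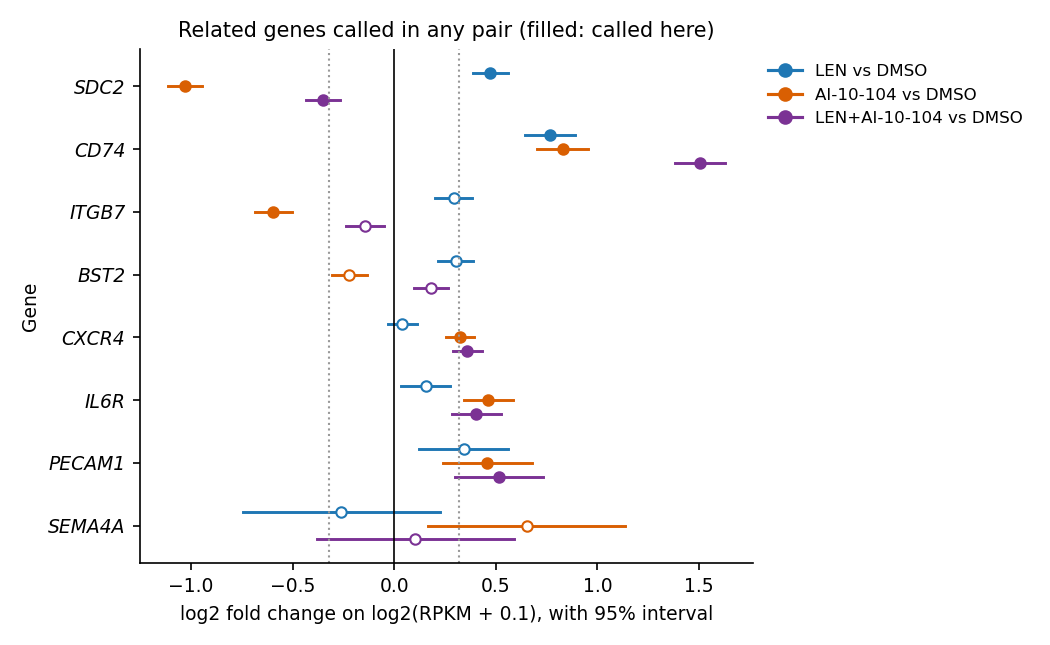
Log2 fold change against DMSO (horizontal axis, with 95% intervals) of the 8 related genes called in at least 1 pairwise comparison (vertical axis), in LEN, AI-10-104 and LEN+AI-10-104, with filled points for calls in the comparison shown. SDC2 and ITGB7 lie to the right of 0 with LEN and to the left with AI-10-104, CD74 lies to the right in all 3, and BST2 and SEMA4A have no filled point and were called between treated conditions.

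The summed level of 7 plasma cell markers ran from 1553 to 1604 RPKM with AI-10-104, above 1373 to 1450 in DMSO, 1333 to 1374 in LEN and 1373 to 1458 in the combination. Most of this came from XBP1, at 509 RPKM in DMSO and 632 with AI-10-104. MZB1 went from 210.9 to 225.8, TNFRSF17 from 178.5 to 191.1 and IRF4 from 208.8 to 219.6 RPKM. SDC1 went from 146 to 149, PRDM1 was at 33.4 in both and POU2AF1 went from 135 to 129 RPKM. The part of XBP1 in the results of SLAMF7 and CD48 was not tested. The tested genes whose log2 levels over the 12 samples were most like SLAMF7 were GDI2 (Pearson r = 0.972), OAT (0.962) and CLASP2 (0.946), and those most like GPRC5D were TMC8 (0.942), SCPEP1 (0.941) and TNS3 (0.941). The 12 points share libraries and conditions, and these values describe likeness only. GDI2 ran from a mean of 228 RPKM in DMSO to 253 with AI-10-104, a smaller span than that of SLAMF7, and TMC8 from 18.4 RPKM in DMSO to 21.9 with LEN and 24.4 with both.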

How the data were processed

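Poly(A) RNA of 12 samples was measured. Alignment by the authors used STAR on GRCh38, and the deposited table holds RPKM values beside gene lengths. The processing notes of the labels also name FastQC, Cuffnorm and DESeq2, and the settings are not given in the sources used here. Dividing by the step of 1 read gave whole reads for 100% of the values (tolerance 0.1 read), 16352548 to 31386210 per sample. The spread between replicates exceeded counting error (chi-square per degree of freedom of 1.88 to 9.64 over 12 pairs), and read floors (3 reads) cover counting error only. Of the gene names, 28 are spreadsheet date numbers.

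The 11241 genes whose mean reached 0.5 RPKM entered a limma fit (version 3.58.1, R 4.3.3) of log2(RPKM + 0.1) over 12 samples, 1 mean per condition, a variance trend and Benjamini-Hochberg adjustment over all tested genes. The pseudocount makes fold changes of low genes smaller. The plan assumed FPKM. A test on simulated data for LEN against DMSO called 50 of 50 genes set to a log2 change of 1, 49 of 50 set to -1, 37 of 50 set to 0.5, 29 of 49 set to -0.5 and 6 of 11039 unchanged genes. The simulated reads had the same spread setting for every gene, with no replicate effect and no library apart. These rates therefore need not hold for the real samples. The 10 members, the related lists and the tests were chosen with earlier results of these data known. Named were the members, list genes called in a pairwise comparison, the highest gene of each list and the 3 genes most like each called member, while other genes were named after their values were seen. Coordinates are from GENCODE 44 (GRCh38), promoters from RefSeq. Alternatives were pseudocounts of 1 and 0.01, minimum means of 1 or any value above 0, median-ratio and quantile scaling, voom on reads, a block for the replicate number, a fit without the variance trend or to the conditions compared alone, and leaving out each sample. Tables and figures used Python 3.11.15, numpy 2.4.6, pandas 2.3.3, scipy 1.17.1 and matplotlib 3.10.9. A marker gene of the lists is not reported here.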

Additional observations from a re-analysis of the deposited data

How the results depend on the processing

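The 3 calls of SLAMF7 held in 10 of 10 other settings and in 12 of 12 fits that left out 1 sample (0.64 to 0.73 for AI-10-104 against DMSO over the latter). The 1 member called with LEN+AI-10-104 against DMSO, GPRC5D, became 0 with a pseudocount of 1 (0.31), median-ratio scaling (0.30), quantile scaling (0.31) and without DMSO replicate 3 (0.28, with a range of 0 to 1 calls over the 12 left-out samples), in each case by the fold threshold. The 0 members called in the interaction became 1, SLAMF7, with voom (adjusted p = 0.022, 3 genes called in all) and without AI-10-104 replicate 2 (adjusted p = 0.015, 540 genes called in all), a range of 0 to 1 over the left-out samples, and its adjusted p reached 0.41 without another sample; the cause was not tested. Over all genes the calls moved by over 1.5 times in the fit to the compared conditions alone (199 to 113 for AI-10-104 against DMSO, 408 to 243 for both against AI-10-104). They also did so without the variance trend (0 to 1 in the interaction) and on leaving out 1 sample. Leaving out 1 sample gave 119 to 443 for AI-10-104 against DMSO and 183 to 764 for both against AI-10-104. It gave up to 692 (from 446) for LEN against AI-10-104 without AI-10-104 replicate 2. For LEN against DMSO it gave 35 to 48 (from 73) without DMSO replicate 2 or 3 or LEN replicate 1 or 3. For both against AI-10-104 it gave 221 without LEN+AI-10-104 replicate 1, and for the interaction 2 (from 0) without LEN+AI-10-104 replicate 3. The order of the members differed in 3 places with the exon length of the annotation. Across 1370 values of members over all alternatives 36 changed sign, none of them a call, and each was within 0.05 of 0 in the fit reported. With the replicate number as a block, 0, 1, 1, 0, 1, 1 and 0 members were called in the 7 comparisons in the order LEN, AI-10-104 and both against DMSO, both against LEN, both against AI-10-104, LEN against AI-10-104 and the interaction, so no call of a member changed. Deviations of same-numbered samples correlated at over 0.1, the rule used for pairing, in only 2 of 18 pairs (mean 0.0522, against -0.0261 for different numbers). Still, 12 of 12 samples were most like their own number, so whether the numbers pair the samples was not settled. With the block the calls over all genes rose in each pairwise comparison, from 408 to 473 for both against AI-10-104. The interaction of SLAMF7 then had a limma adjusted p of 0.066, against 0.16 in the fit reported, and was not called. Genes at few reads, TNFRSF13B, LY9 and FCRL5, are those that depth limits most.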
